A study of Mus musculus with 16 samples.

Results

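All 16 libraries of the series were grouped by the replicate number in their titles, which gave 4 replicate sets of 4 libraries, with 1 library of each treatment in every set. The cells were primary hippocampal neurons of wild type CD1 mice, prepared from newborn pups and treated with AraC, which kills dividing cells, in every group. They received 10-fold concentrated conditioned medium at 10 and 13 days in vitro (DIV), and RNA was taken at 17 DIV. The medium came from immortalized astrocytes homozygous for the human APOE alleles that encode apoE2, apoE3 or apoE4, or from immortalized Apoe-/- astrocytes in the control group. In every group these astrocytes had been grown in serum-free medium with added hydroxycholesterol, a cholesterol derivative, which the study used to enhance apoE production. CD1 is an outbred stock. The study speaks of independent cultures for each treatment, while the labels do not say what a replicate number marks. The sheet numbers in the labels run 1 to 4 in set 1, 5 to 8 in set 2, 9 to 12 in set 3 and 13 to 16 in set 4, so that the replicate set and the block of sheet numbers cannot be told apart. Each combination of set and treatment holds 1 library, so whether a treatment acts differently in different sets cannot be tested here.

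A dissociated hippocampal culture starts from all the cells of the tissue. Besides pyramidal and granule neurons it can carry GABAergic interneurons, which migrate in from another part of the embryonic brain, astrocytes, the oligodendrocyte lineage, microglia, ciliated ependymal cells and cells of vessels and meninges. Drugs such as AraC hold down the dividing glia without removing glia that no longer divide. Bulk RNA adds all of these cells together, and within 2 weeks the neurons also form synapses and start to fire, so cell makeup, maturity and activity all enter the same count. In such data, fewer cells of a type and less RNA per cell cannot be told apart.

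Expression is given in CPM, the counts of a gene per library size after TMM scaling. Where 4 values follow each other for a set, they stand in the order control, apoE2, apoE3, apoE4. Sets were compared with treatment as a block, and log2 fold changes (FC) compare 1 set with the mean of the other 3 unless a pair is named. The 4 such contrasts share libraries and are not independent of each other, and the SD over a set includes the spread between its treatments. The labelled cell type held in every library, since pan-neuronal genes such as Snap25 and Map2 were expressed throughout, but markers of astrocytes and of oligodendrocytes were expressed in all 16 libraries too. Reads on genes ranged from 14087723 to 34248172 per library. In every set the most deeply sequenced library also had the lowest Lars2 share. This was the control library in sets 1 and 3 (5.95 and 3.89% of gene counts). In set 2 it was the apoE4 library (0.359%) and in set 4 the apoE2 library (0.690%). A setting that was not planned left out those of sets 1 and 4 together, but not those of sets 2 and 3. In set 1 the pan-neuronal counts below were then 0 higher and 9 lower, and the astrocyte counts 17 higher and 0 lower. In set 4 the pan-neuronal counts were 0 higher and 16 lower, and the astrocyte counts 17 higher and 1 lower.

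Of 17038 genes tested, 10865 (63.8%) differed among the 4 sets in edgeR's quasi-likelihood F test at an adjusted p under 0.05. For 4755 genes (27.9%) the highest and the lowest set also lay at least 2-fold apart, for 1917 at least 4-fold and for 155 at least 16-fold. The largest block of the 4755 genes was highest in set 4 and lowest in set 2, with 2049 genes or 43.1%. Set 4 was the highest set for 2647 of the 4755 genes and set 2 the lowest for 2447. The reverse order, highest in set 2 and lowest in set 4, was seen for 564 genes. Among the 155 genes with a 16-fold range, 108 were highest in set 4 and lowest in set 2.

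Against the mean of the other sets, 2088 genes (12.3%) were higher and 1313 (7.71%) lower in set 1. In set 2 the counts were 3677 higher (21.6%) and 4056 lower (23.8%), in set 3 they were 2675 (15.7%) and 3321 (19.5%), and in set 4 they were 5116 (30%) and 3924 (23%). The excess of lower genes in sets 2 and 3 held under some other settings but not under all. In set 3 it turned to 3202 higher and 2763 lower with DESeq2 size factors, 3366 higher and 3019 lower with DESeq2, 3175 higher and 2795 lower with no filter on low counts and 3049 higher and 2862 lower without features over 1% of counts. It also turned with 1 library left out for 6 of the 16 libraries (apoE2 and apoE3 of set 1, apoE2 of set 2 and apoE2, apoE3 and apoE4 of set 3), for example to 2853 higher and 2818 lower without the apoE2 library of set 1 and to 2252 higher and 2047 lower without the apoE4 library of set 3. In set 2 it turned to 3650 higher and 3417 lower with the stricter filter of 1 CPM in 8 libraries, and to 3870 to 4360 higher and 3715 to 4132 lower for 7 of the 16 libraries (apoE2, apoE3 and apoE4 of sets 1 and 3 and apoE2 of set 4). The skew was larger past 2-fold, where set 2 had 528 genes higher (3.1%) and 1961 lower (11.5%) and set 4 had 2019 higher (11.8%) and 684 lower (4.01%). These percentages are the background for the counts of list members against the other sets below. The median log2 FC over all genes tested was 0.02 in sets 1, 2 and 4 and -0.05 in set 3. In a setting added after the data were seen, library sizes were scaled to 20 pan-neuronal genes, which moved the median log2 FC of all genes to 0.33, -0.42, -0.49 and 0.60 in sets 1 to 4. On this pan-neuronal scale 52.1% of all genes were higher and 1.37% lower in set 1, 4.02% higher and 64.2% lower in set 2, 3.18% higher and 67.5% lower in set 3, and 73.2% higher and 3.77% lower in set 4, and counts on that scale are read against these shares.

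Between pairs of sets, sets 2 and 4 differed at the largest number of genes, 9533 (56%), followed by sets 3 and 4 with 9236 (54.2%), sets 1 and 2 with 6763 (39.7%) and sets 1 and 3 with 5790 (34%). Sets 2 and 3 differed at 3931 genes (23.1%) and sets 1 and 4 at 2699 (15.8%). The last count rested on single libraries, since it was 4083 without the apoE2 library of set 4 and 1281 without the control library of set 1. A second axis of variation ran across the first. The second principal component of log2 CPM held 9.53% of the variance, lay to 93.9% between sets, and placed set 3 at a mean score of -36.4 against 22.9 for set 2.

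**Figure D1:**
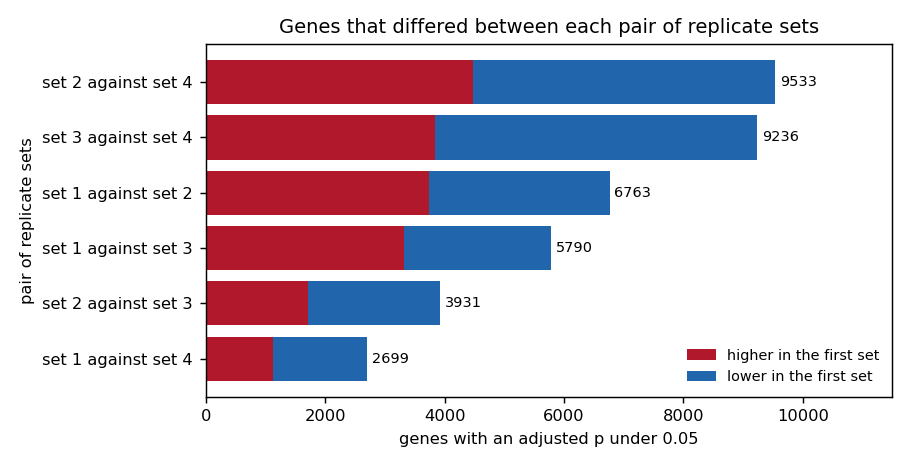
Number of genes that differed between each pair of replicate sets (horizontal axis, edgeR adjusted p under 0.05 with treatment as a block), split into genes higher and lower in the first set named. Sets 1 and 4 differed at 2699 genes and sets 2 and 4 at 9533.

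Pan-neuronal genes were high in sets 2 and 3 and low in sets 1 and 4, and astrocyte genes were low in set 2 and high in sets 1 and 4. Between sets 2 and 3 the lists did not mirror each other, since 17 of 20 astrocyte genes were lower in set 2 than in set 3 (median log2 FC -1.06) while 4 of 20 pan-neuronal genes were higher and 2 lower, against 10% of all genes higher and 13% lower in set 2 than in set 3. The 20 pan-neuronal genes summed to 8109, 7592, 7147 and 7562 CPM in set 1 and to 11022, 11083, 11401 and 11573 CPM in set 2. In set 3 they summed to 11394, 11742, 11057 and 10880 CPM, and in set 4 to 7496, 7805, 5561 and 5986 CPM. The 8 libraries of sets 2 and 3 were all above the 8 libraries of sets 1 and 4, with set means of 11270 ± 262 and 11269 ± 381 against 7602 ± 394 and 6712 ± 1105 CPM (SD, n = 4). By gene, 14 of 20 were higher and none lower in set 2, 12 were higher and none lower in set 3, and 16 were lower and none higher in set 4. Set 1 had 9 lower and none higher, and the count of lower genes was 8 to 14 under other filters, size factors and tools or with 1 library left out. On the scale set by these same genes, 4 were lower and 4 higher in set 1. The median log2 FC of the list was -0.26, 0.47, 0.32 and -0.59 in sets 1 to 4.

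Snap25, a component of the vesicle fusion machinery, was at 856, 806, 656 and 709 CPM in set 1 and at 1296, 1215, 1218 and 1262 CPM in set 2. In set 3 it was at 1584, 1390, 1301 and 1433 CPM, and in set 4 at 618, 626, 393 and 534 CPM. No library of sets 1 and 4 reached a library of sets 2 and 3, and the log2 FC of set 4 was -1.04 ± 0.09 (SE, adjusted p = 2.14e-07, edgeR). The neurofilament light chain gene Nefl separated set 3 from the rest, with a set mean of 953 ± 186 CPM against 406 ± 63.8, 573 ± 48.3 and 376 ± 61.9 CPM in sets 1, 2 and 4 (SD, n = 4). Rbfox3, which encodes the nuclear antigen NeuN, varied less, with a log2 FC of 0.47 ± 0.11 in set 2 and -0.44 ± 0.11 in set 4.

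The 21 astrocyte genes summed to 5014, 8122, 10106 and 7759 CPM in set 1, to 2930, 3507, 3537 and 3362 CPM in set 2, to 5039, 5896, 6359 and 6681 CPM in set 3 and to 7963, 7325, 14825 and 12818 CPM in set 4. Set 2 lay below every other library. Within set 4 the apoE3 and apoE4 libraries were far above the control and apoE2 libraries, and in set 1 the control library was the lowest. Of the 20 astrocyte genes tested, 17 were lower and none higher in set 2 (median log2 FC -1.63), while 17 were higher and 1 lower in set 4 (1.16). In set 1, 15 were higher and none lower, a count that ranged from 7 to 18 under other filters, size factors and tools or with 1 library left out and was 19 on the pan-neuronal scale.

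The ratio of the astrocyte sum to the pan-neuronal sum carried both shifts. It was 1.03 ± 0.326 in set 1, 0.296 ± 0.0228 in set 2, 0.533 ± 0.0764 in set 3 and 1.70 ± 0.840 in set 4 (SD, n = 4). Inside sets 1, 3 and 4 the library with the highest astrocyte sum was also the one with the lowest pan-neuronal sum, while in set 2 they were different libraries. Because the 16 libraries fall into 4 sets, no correlation of the sums was calculated across them, and the relation inside the sets was not tested.

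**Figure D2:**
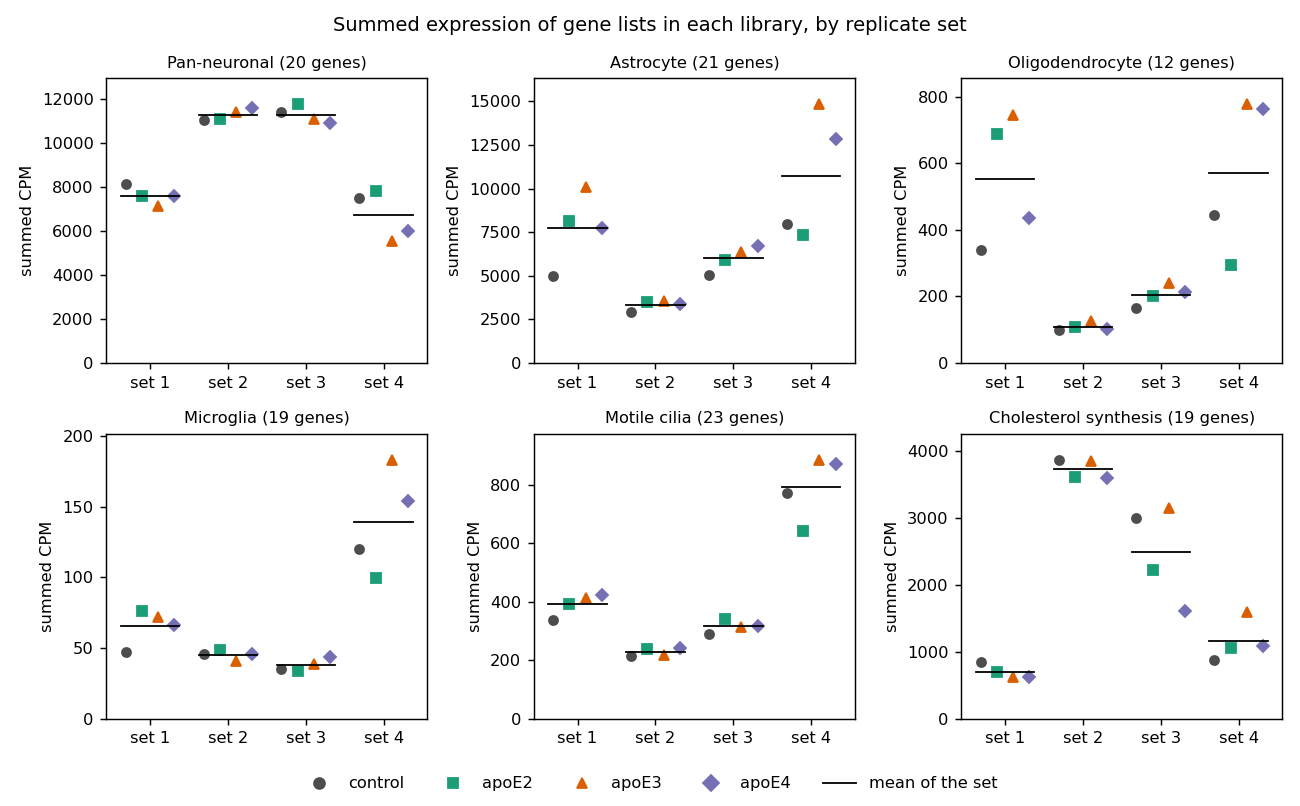
Summed expression (CPM, linear axes from 0) of 6 gene lists in each of the 16 libraries, by replicate set on the horizontal axis, with 1 symbol per treatment and a line at the mean of each set. Pan-neuronal and cholesterol synthesis genes were high in sets 2 and 3, and the glial lists were lowest in set 2 or 3 and highest in set 4.

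Gja1, which encodes the main gap junction protein of astrocytes, had the smallest p of the astrocyte list. It was at 38.2, 67.0, 77.1 and 62.5 CPM in set 1, at 10.1, 14.5, 16.1 and 13.8 CPM in set 2, at 23.2, 35.7, 36.5 and 35.9 CPM in set 3 and at 84.2, 69.9, 145 and 134 CPM in set 4. The ranges of sets 2, 3 and 1 did not overlap, and set 1 overlapped with set 4 by its apoE3 library alone. Its log2 FC was -2.13 ± 0.14 in set 2 and 1.84 ± 0.11 in set 4. S100b, a calcium-binding protein gene of mature astrocytes, gave -2.25 ± 0.16 and 2.06 ± 0.12 and Mlc1, a membrane protein gene of astrocyte endfeet, gave -2.07 ± 0.13 and 1.76 ± 0.11. Gfap, the intermediate filament gene of astrocytes, was at 474, 1206, 2118 and 1281 CPM in set 1 and at 189, 329, 354 and 300.2 CPM in set 2. In set 3 it was at 641, 1069.9, 1411 and 1229.5 CPM, and in set 4 at 1288, 1381, 3449 and 2492 CPM. The control library had the lowest Gfap of its set in all 4 sets. On coverslip cultures the study found no significant difference between treatments in the share of GFAP-stained cells, which is a count of cells and not of RNA.

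Genes of reactive astrocytes varied more than the general astrocyte genes. All 22 were lower in set 2 (median log2 FC -2.17) and all 22 were higher in set 4 (1.83). Complement C3 was at 313, 532, 646 and 688 CPM in set 1, at 11.99, 29.6, 31.1 and 25.3 CPM in set 2, at 87.8, 219, 170 and 160 CPM in set 3 and at 776, 731, 1582 and 1853 CPM in set 4. No set overlapped with another in C3, and its log2 FC was -4.29 ± 0.22 in set 2 and 3.26 ± 0.15 in set 4 (adjusted p = 8.59e-09 and 9.44e-10, edgeR). Of 19 interferon-responsive genes, 17 were lower in set 2 and 17 higher in set 4, and Cxcl10, an interferon-induced chemokine, averaged 5.23 ± 2.03, 0.314 ± 0.154, 1.59 ± 0.468 and 6.97 ± 2.84 CPM in sets 1 to 4 (SD, n = 4). For the oxidative stress and metallothionein genes, all 10 were lower in set 2 and 9 were higher in set 4.

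The other glial and non-neural lists shared the low values of set 2 but not one common order. All 12 oligodendrocyte genes were lower in set 2 (median log2 FC -2.06), and all 12 were higher in both set 1 (1.28) and set 4 (1.54). For 11 of the 12, all 8 libraries of sets 1 and 4 were above all 8 libraries of sets 2 and 3, an arrangement found for 6.65% of all genes tested. Mobp, a myelin protein gene, averaged 37.4 ± 13.4, 4.04 ± 0.903, 8.03 ± 1.93 and 38.2 ± 15.7 CPM (SD, n = 4). Among the oligodendrocyte precursor genes, Olig1, a transcription factor of the lineage, was highest in set 1 at 143, 255, 226 and 167 CPM and lowest in set 2 at 25.8, 32.0, 36.0 and 26.8 CPM. In set 3 Olig1 was at 49.0, 63.6, 62.8 and 57.8 CPM and in set 4 at 99.0, 95.3, 191 and 105 CPM, where the apoE3 library overlapped with set 1.

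Fibroblast and meningeal genes marked sets 1 and 4 as well. Of 12, 10 were higher and none lower in set 1 (median log2 FC 1.82), 9 were higher and 1 lower in set 4 (1.60), and 8 and 10 were lower in sets 2 and 3. The collagen gene Col3a1 was at 32.6, 42.2, 62.5 and 48.1 CPM in set 1 and at 39.6, 27.5, 70.9 and 72.6 CPM in set 4, which overlapped. In set 2 it was at 3.70, 3.90, 5.29 and 4.56 CPM and in set 3 at 4.82, 5.98, 6.82 and 4.65 CPM, all below both other sets.

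Microglial genes were higher in set 4 in larger number than in set 1. Of 19 microglial genes, 17 were higher and none lower in set 4 (median log2 FC 1.84), against 2 higher in set 1 (0.22), and 14 and 12 were lower in sets 2 and 3, with 2 higher in set 2. The 14 became 9 without the apoE4 library of set 2, and none was higher in set 1 without its apoE2 or its apoE3 library. Tyrobp, an adaptor of microglial receptors, was at 10.6, 9.49, 14.2 and 13.5 CPM in set 4, at 3.05, 4.72, 6.02 and 4.41 CPM in set 1 and at no more than 1.77 CPM in sets 2 and 3. Of 8 mural cell genes, 4 were higher and none lower in set 1 and 5 were higher and 1 lower in set 4. Acta2, the smooth muscle actin of these cells, was at 60.1, 53.6, 147 and 100 CPM in set 4 and at 11.6, 33.5, 18.8 and 18.9 CPM in set 1. In set 2 Acta2 was at 1.13, 1.68, 1.11 and 0.542 CPM and in set 3 at 1.501, 3.29, 2.70 and 2.99 CPM, below set 1 in every library. Of 11 progenitor and radial glia genes, 8 were higher and 1 lower in set 4 (median log2 FC 1.20). In set 2, 8 were lower and 1 higher (-1.61). Prom1, a gene of this list that encodes a membrane protein of neural progenitors, averaged 38.7 ± 17.4 CPM in set 4 against 8.28 ± 3.26, 2.46 ± 0.466 and 5.598 ± 1.56 CPM in sets 1 to 3 (SD, n = 4).

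Genes of motile cilia were high in set 4 as well. The choroid plexus and ependymal list had 10 of 11 genes higher in set 4 and 10 lower in set 2. A list of 25 motile cilium genes was written after these values had been seen, so its counts are a description. Of 23 that were tested, 22 were higher and none lower in set 4 (median log2 FC 1.92), and 20 were lower in set 2 (-1.52). In set 3, 8 were lower and none higher (-0.31), and in set 1, 2 were higher and 1 lower (0.02). On the pan-neuronal scale 11 were higher and none lower in set 1, with a median of 0.32 near the 0.33 of all genes. Rsph4a, a radial spoke protein gene, was at 60.3, 49.4, 70.3 and 64.4 CPM in set 4 and at 18.3, 21.1, 24.5 and 22.2 CPM in set 1. It was at 8.25, 9.36, 9.18 and 8.01 CPM in set 2 and at 14.2, 17.7, 17.6 and 13.7 CPM in set 3. Set 4 lay above all 12 other libraries and set 2 below them. Foxj1, the transcription factor of motile ciliogenesis, gave a log2 FC of 2.06 ± 0.11 in set 4 and -2.42 ± 0.14 in set 2.

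**Figure D3:**
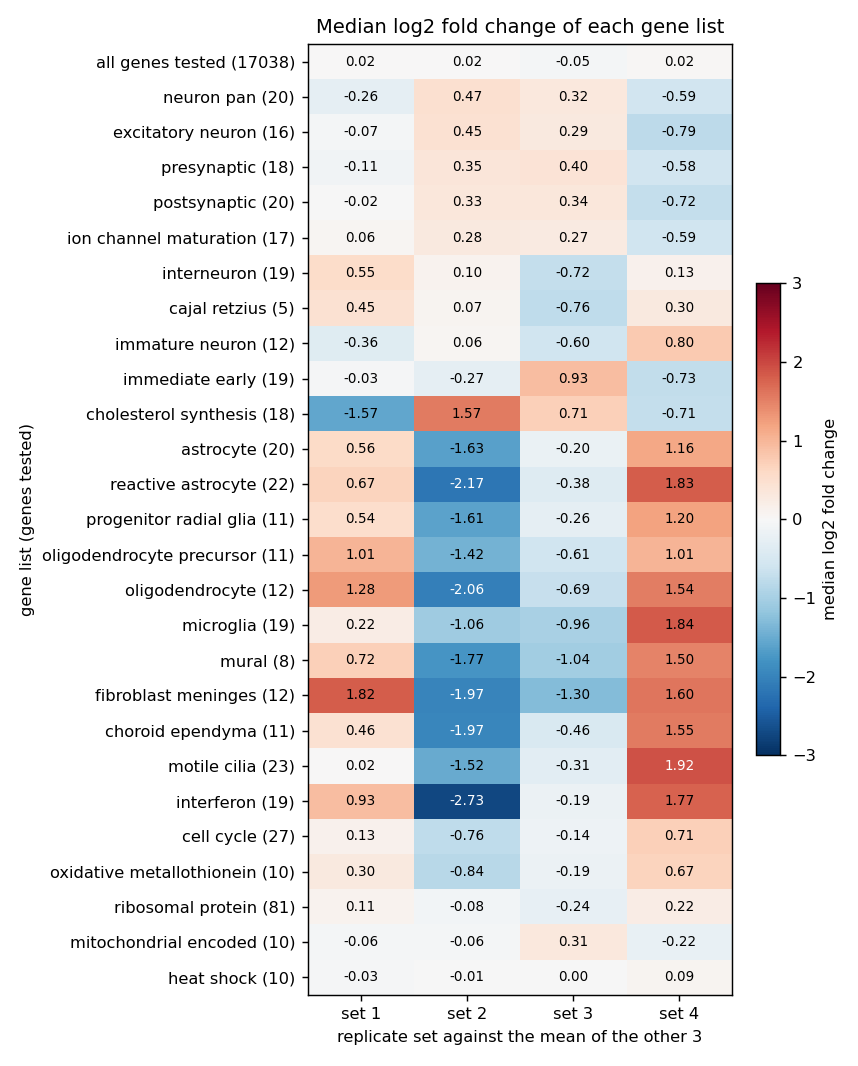
Median log2 fold change of the genes of each list (rows, with the number of genes tested) in each replicate set against the mean of the other 3 (columns), on a colour scale from -3 to 3. Glial, vascular and ciliary lists were lowest in set 2 and, except for the fibroblast and oligodendrocyte precursor lists, highest in set 4, and cholesterol synthesis ran from -1.57 in set 1 to 1.57 in set 2.

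Synaptic and excitatory neuron genes were mostly lower in set 4, as were the pan-neuronal genes, but few of them were lower in set 1. In set 4, 16 of 18 presynaptic, 18 of 20 postsynaptic, 15 of 17 ion channel and 13 of 16 excitatory neuron genes were lower, with median log2 FC of -0.58, -0.72, -0.59 and -0.79. Slc17a7, the vesicular glutamate transporter of most hippocampal excitatory neurons, was at 518, 574, 335 and 312 CPM in set 4 against 803, 645, 612 and 773 CPM in set 1, 1039, 954, 991 and 1050 CPM in set 2 and 1120, 1177, 1170 and 1245 CPM in set 3. In set 1, 7.71% of all genes were lower, and the lists were not tested against each other. There 2 of 18 presynaptic, 3 of 20 postsynaptic, 2 of 17 ion channel and 4 of 16 excitatory neuron genes were lower, against 9 of 20 pan-neuronal genes. With 1 library left out these counts were 2 to 5, 2 to 5, 0 to 4 and 1 to 4, the presynaptic 5 without the apoE4 and the postsynaptic 5 and ion channel 4 without the apoE3 library of set 4, the ion channel 0 without the apoE3 and the excitatory 1 without the control library of set 1. On the pan-neuronal scale the presynaptic, postsynaptic, ion channel and excitatory medians in set 4 became -0.01, -0.15, -0.03 and -0.25, with 6 lower and 4 higher, 8 lower and 2 higher, 4 lower and 2 higher, and 8 lower and 2 higher genes, while the median of all genes was 0.60. The presynaptic and postsynaptic medians in sets 2 and 3 turned slightly negative on that scale. In set 1 it gave 10 of 18 presynaptic, 13 of 20 postsynaptic, 10 of 17 ion channel and 10 of 16 excitatory neuron genes higher, with medians of 0.21, 0.30, 0.38 and 0.25 near the 0.33 of all genes, of which 52.1% were higher.

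Some neuronal genes separated single sets. Homer1, a postsynaptic scaffold gene, was at 430, 285, 281 and 357 CPM in set 3, above every other library, and at 111, 131, 95.7 and 107 CPM in set 1, 195, 159, 157 and 164 CPM in set 2 and 83.7, 106, 69.0 and 63.4 CPM in set 4. Kcnq3, which encodes a subunit of the M-type potassium channel, averaged 237 ± 56.2 CPM in set 3 and 53.1 ± 4.38 CPM in set 4 (SD, n = 4). Genes of immature neurons went the other way in set 4, where 11 of 12 were higher and none lower (median log2 FC 0.80), while 7 of 12 were lower in set 3 (-0.60) with 2 higher, and 7 were lower in set 1 (-0.36) with 1 higher. Without the control library of set 1, 4 were lower there. Dpysl3, a growth cone protein gene, was at 680, 634, 661 and 655 CPM in set 4 with no overlap with the 318 to 354 CPM of set 1, the 452 to 532 CPM of set 2 and the 261 to 359 CPM of set 3. The median of the immature list on the pan-neuronal scale was 1.37 in set 4 against 0.60 for all genes. In set 1 that scale gave 1 higher and 1 lower (median -0.05 against 0.33 for all genes). In set 3 it gave 9 lower and 1 higher (-1.05 against -0.49).

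Immediate early genes, which neurons switch on when they fire, were highest in set 3. Of 19, 16 were higher and 1 lower in set 3 (median log2 FC 0.93), and 11 were lower and 4 higher in set 4 (-0.73). Arc, which acts at active synapses, was at 131, 64.8, 50.2 and 126 CPM in set 3, above all other libraries, at 45.2, 34.8, 20.9 and 41.1 CPM in set 1, at 40.8, 20.4, 22.2 and 43.1 CPM in set 2 and at 18.02, 16.3, 13.6 and 16.5 CPM in set 4. Set 4 lay below every other library, and in set 3 the control and apoE4 libraries were about alike and above the apoE2 and apoE3 libraries. Bdnf, the neurotrophin gene, was at 473, 328, 347 and 470 CPM in set 3 with a log2 FC of 1.37 ± 0.09 (adjusted p = 8.75e-08, edgeR). Jun and Btg2 did not follow the list, since Jun was lower in set 3 (log2 FC -0.69) and Btg2 was lower in set 2 (-0.99) and higher in sets 1 and 4. On the pan-neuronal scale 11 genes were higher and 2 lower in set 3 (median 0.47 against -0.49 for all genes), while set 4 had 6 in each direction.

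Cholesterol synthesis genes formed an order of their own. Neurons in culture make cholesterol themselves and also take it up from lipoproteins, and the genes of the pathway are driven together by the transcription factor SREBP2 when sterol is short. Hydroxycholesterol had been added to the astrocyte medium of all groups, and whether it bears on these genes was not tested. The 19 genes of the list summed to 852, 695, 627 and 618 CPM in set 1, to 3873, 3611, 3857 and 3604 CPM in set 2, to 2998, 2229, 3154 and 1609 CPM in set 3 and to 880, 1059, 1600 and 1092 CPM in set 4. Sets 1, 4 and 3 stood in rising order below set 2, and all libraries of set 1 were below all others. All 18 genes tested were lower in set 1 (median log2 FC -1.57), all 18 were higher in set 2 (1.57) and in set 3 (0.71), and 16 were lower in set 4 (-0.71). On the pan-neuronal scale set 1 kept 18 of 18 lower and set 2 had 17 of 18 higher, set 3 had 5 higher and set 4 had 1 in each direction, where 1.37% of all genes were lower in set 1 and 4.02% higher in set 2.

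Hmgcs1, which makes the precursor of mevalonate, was at 206, 149, 132 and 114 CPM in set 1, at 1427, 1332, 1332 and 1219 CPM in set 2, at 1009, 709, 935 and 437 CPM in set 3 and at 207, 236, 433 and 282 CPM in set 4. All of set 2 was above the other sets, and set 3 was above set 4 in every library. The log2 FC of Hmgcs1 was -2.15 ± 0.20 in set 1 and 2.07 ± 0.16 in set 2 (adjusted p = 9.99e-06 and 1.44e-07, edgeR). Dhcr7, the enzyme of the final reduction to cholesterol, had a mean of 19.9 ± 3.38 CPM in set 1 and 68.1 ± 2.53 CPM in set 2 (SD, n = 4). Hsd17b7, another enzyme of the pathway, was at 18.3, 15.6, 17.4 and 13.1 CPM in set 1 and between 37.3 and 49.2 CPM in set 2. Within set 3 the apoE4 library had the lowest sum and within set 4 the apoE3 library had the highest, and whether sets differ in their response to a treatment could not be tested.

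**Figure D4:**
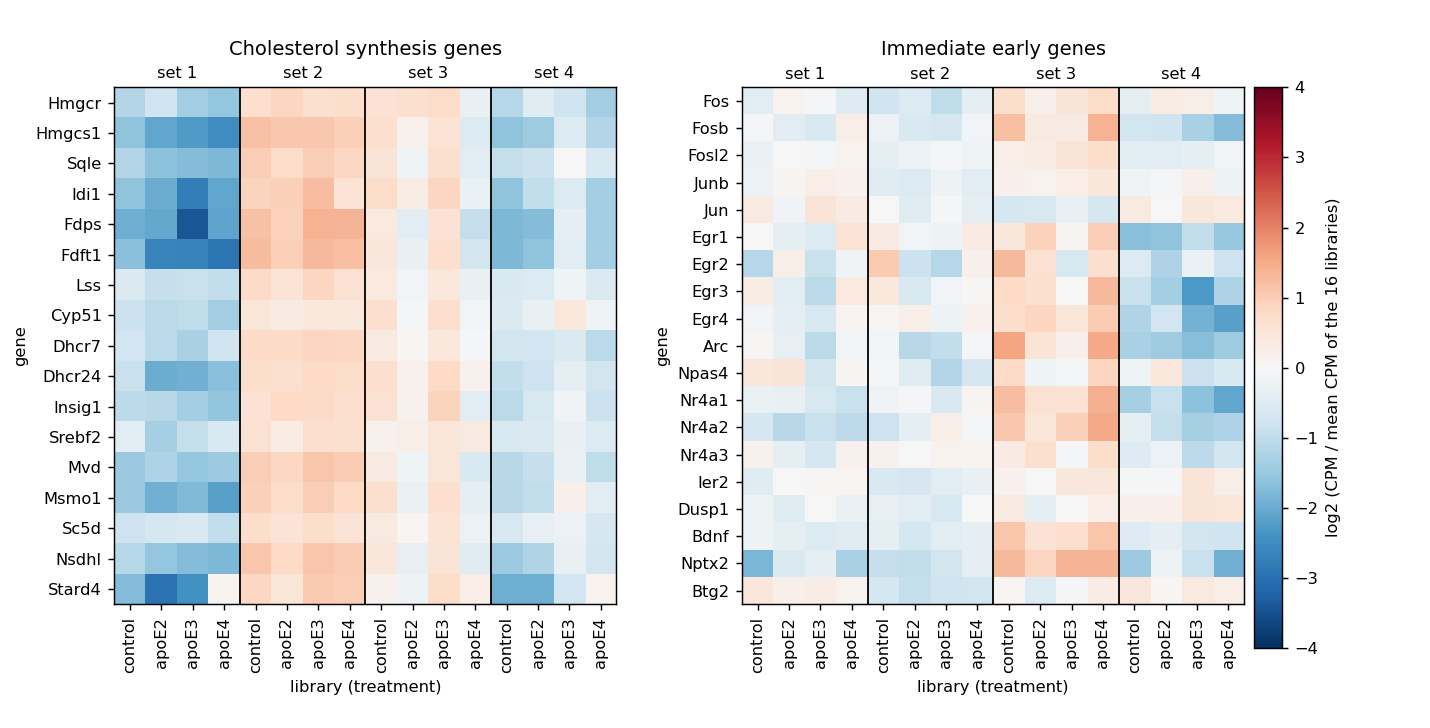
Expression of cholesterol synthesis genes (left) and the immediate early genes (right) in the 16 libraries (columns, by replicate set and treatment), as log2 of the CPM over the gene's mean CPM, on a colour scale from -4 to 4. The cholesterol genes were low throughout set 1, except Stard4 in its apoE4 library, and high throughout set 2, and most immediate early genes were high in set 3 and low in set 4.

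Since the cholesterol genes moved together, their promoters were searched for letters that SREBP2 and its usual partner NF-Y are known to bind. RefSeq promoter windows of 300 bases around the transcription start (build GRCm38.p6) were at hand for 11 of the 19 genes. The letters TCACNCCAC of a sterol regulatory element, searched on both strands, were found in the window of 1 of the 11, Hmgcs1, and of 1.44% of all 27025 genes. The letters CCAAT of the NF-Y box were found on either strand in windows of all 11 genes, against 41.1% of all 27025 genes. The Hmgcs1 element lies at chr13:119690205-119690232 on the plus strand, with the motif in capitals, and next to it the CCAAT boxes (capitals, read as ATTGG from the other strand) closest to the start of Hmgcs1, Idi1, Cyp51, Mvd and Msmo1 are shown to let the neighbouring letters be compared, 5′ to 3′ along each gene.
Hmgcs1 sterol regulatory element: gtcaccgtcTCACCCCACttcccaggtc
Hmgcs1 CCAAT box: tgagtcccgggATTGGcagaggtagccg
Idi1 CCAAT box: tccaaggtgccATTGGctggcgaccgac
Cyp51 CCAAT box: gctgtccgccaCCAATctggtcctgaga
Mvd CCAAT box: cggccagcgggCCAATcatatggcagcg
Msmo1 CCAAT box: agtggggcggaCCAATtacgacaggcga
The boxes lie at chr13:119690350-119690377 (plus strand), chr13:8885581-8885608 (plus), chr5:4104710-4104737 (minus), chr8:122443433-122443460 (minus) and chr8:64733617-64733644 (minus), in that order. A match describes letters and is not a site of binding.

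The same search was made for 2 further lists. The cAMP response element TGACGTCA, which CREB binds in activity-induced genes and which reads the same on both strands, was found in windows of 2 of the 14 immediate early genes with a promoter, Dusp1 and Btg2, and of 2.03% of all genes. Both matches are shown. Neither gene was called in set 3 by edgeR, with a log2 FC of 0.15 for Dusp1 and 0.04 for Btg2, and a link to the motif was not tested.
Dusp1 cAMP response element: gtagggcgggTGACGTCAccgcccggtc
Btg2 cAMP response element: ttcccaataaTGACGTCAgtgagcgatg
They lie at chr17:26508598-26508625 and chr1:134079304-134079331, both on the minus strand. A consensus X box, which RFX factors of ciliated cells bind, was found in the windows of 0 of 19 motile cilium genes and of 0.633% of all genes.

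Interneuron genes were lowest in set 3. Of 19, 11 were higher and 1 lower in set 1 (median log2 FC 0.55), 14 were lower and 1 higher in set 3 (-0.72), and sets 2 and 4 had 7 and 5 higher with 3 and 2 lower. In set 4, 9 were higher without the apoE3 library and 4 lower without the apoE4 library. The ratio of their sum to the pan-neuronal sum was 0.144 ± 0.00825, 0.0937 ± 0.00659, 0.0725 ± 0.00428 and 0.144 ± 0.0363 in sets 1 to 4 (SD, n = 4), so that relative to the pan-neuronal genes sets 1 and 4 were high and sets 2 and 3 low. On the pan-neuronal scale 16 of 19 were higher in set 1 and 14 in set 4, and 10 and 16 were lower in sets 2 and 3. The medians of the list there were 0.87, -0.34, -1.15 and 0.69 in sets 1 to 4, close to those of all genes in sets 2 and 4 (-0.42 and 0.60) and farther from them in sets 1 and 3 (0.33 and -0.49). Lhx6, a transcription factor of interneurons born in the medial ganglionic eminence, was at 4.64, 4.02, 3.70 and 5.04 CPM in set 3 and between 10.0 and 19.2 CPM in all other libraries, with a log2 FC of -1.77 ± 0.10 in set 3 (adjusted p = 3.28e-08, edgeR). Pvalb, which marks fast-spiking interneurons, was at 8.52, 11.53, 10.8 and 8.75 CPM in set 3 and at 54.6, 49.9, 69.3 and 65.2 CPM in set 4. Cck, a peptide made by other interneurons and by pyramidal cells, moved against them, with 305 ± 85.4 CPM in set 3 and 279.9 ± 59.5 CPM in set 2 against 87.7 ± 30.6 and 77.8 ± 31.2 CPM in sets 1 and 4 (SD, n = 4). Calb2, a calcium-binding protein gene of Cajal-Retzius cells and some interneurons, was lowest in set 3 at 60.5, 54.4, 51.1 and 40.3 CPM, with no overlap with any other set.

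Genes of hippocampal subfields differed as well. Mpped1, which is expressed in the pyramidal field CA1, was at 70.2, 120, 65.1 and 79.8 CPM in set 2 and did not exceed 35.9 CPM in the other sets. Fibcd1 and Rgs14, which mark CA1 and CA2, gave a log2 FC of 1.79 ± 0.17 and 1.43 ± 0.15 in set 2. Prox1, the transcription factor of dentate granule cells, was named after its values were seen and went the other way, with 36.9 CPM in set 2 against 102, 63.7 and 72.9 CPM in sets 1, 3 and 4 (set means, n = 4). Of the 15 genes of the list, 8 were higher and 2 lower in set 2, and 10 were lower and 1 higher in set 4, or 6 lower without its apoE4 library. The pan-neuronal scale gave 4 higher and 3 lower in set 4, and 5 higher and 6 lower in set 2.

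The genes that separated single sets with the smallest p were not markers of 1 cell type. They were picked as the 3 higher and 3 lower genes with the smallest p per set among those called at 2-fold whose set was at the extreme in every treatment. Gm11942, a processed pseudogene (chromosome 4, 32964888 to 32965232, mm10), had 0.201, 0.191, 0.328 and 0.228 CPM in set 2, 2.86, 2.87, 3.70 and 3.38 CPM in set 3, 26.8, 40.8, 35.3 and 30.0 CPM in set 1 and 51.3, 41.4, 55.8 and 42.3 CPM in set 4. No set overlapped with another, and the log2 FC was -6.15 ± 0.19 in set 2 and 4.02 ± 0.11 in set 4 (adjusted p = 4.50e-11 and 4.78e-12, edgeR). Gm8399 (chromosome 13, 81064684 to 81065800), also a processed pseudogene, was at 1.26, 0.958, 1.26 and 1.05 CPM in set 3, at 15.6 to 21.9 CPM in set 2 and at 43.4 to 83.1 CPM in sets 1 and 4. Gm6166, another processed pseudogene, was at 0.282 to 1.17 CPM in sets 1 and 4 and at 10.1 to 13.4 CPM in sets 2 and 3. Reads of such copies can be shared with their parent genes, so the gene of origin is uncertain.

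Cwc22, a splicing factor gene (chromosome 2, 77881159 to 77946375), was at 24.5, 22.1, 20.9 and 23.4 CPM in set 2. It was at 260, 181, 150 and 181 CPM in set 1, at 165, 133, 125 and 129 CPM in set 3 and at 162, 175, 125 and 148 CPM in set 4. Set 2 stood far below the 12 other libraries, which overlapped with each other (log2 FC -2.80 ± 0.09, adjusted p = 7.22e-11, edgeR). Gipr, the receptor of an incretin hormone, was at 20.3, 36.6, 12.4 and 13.3 CPM in set 2 and at no more than 3.31 CPM elsewhere. Slc6a7, the brain proline transporter, and Pex5l, a partner of pacemaker channels, were also highest in set 2 (log2 FC 2.27 ± 0.09 and 1.61 ± 0.08), and Kcnj10, the potassium channel of astrocytes, was lowest there (-2.57 ± 0.13).

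Grp, the gene of gastrin-releasing peptide, took a different level in each set. It was at 67.1, 65.8, 53.1 and 69.3 CPM in set 3, at 11.2, 16.4, 13.2 and 24.9 CPM in set 2, at 2.88, 1.27, 3.35 and 2.34 CPM in set 4 and at 0.727, 1.20, 0.609 and 0.949 CPM in set 1. The 4 sets did not overlap (log2 FC of 4.33 ± 0.17 in set 3 and -3.95 ± 0.29 in set 1). Bok, a member of the BCL-2 family, was at 51.5, 24.2, 23.9 and 51.9 CPM in set 3 and Ifi203, an interferon-inducible gene, was at 19.7, 8.43, 9.18 and 20.5 CPM there, each above all 12 other libraries. For both genes, the control and apoE4 libraries were above the apoE2 and apoE3 libraries in set 3, and for Bok this order was the same in all 4 sets. Tpm3-rs7, a tropomyosin-like gene, was lowest in set 3 (log2 FC -1.85 ± 0.09).

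In set 4, Lgals3, which encodes galectin-3 of reactive glia and macrophages, was at 45.0, 48.2, 91.8 and 83.6 CPM and did not exceed 23.99 CPM elsewhere (log2 FC 3.12 ± 0.09, adjusted p = 1.54e-11, edgeR). Tppp3, a tubulin-binding protein gene, was at 117, 85.0, 154 and 170 CPM there and at no more than 48.1 CPM elsewhere. Hpca, the hippocampal calcium sensor hippocalcin, and the neuronal signalling enzymes Pde2a and Dgkz were lowest in set 4 (log2 FC -1.86 ± 0.12, -1.21 ± 0.08 and -1.11 ± 0.07). In set 1, Egfr, the receptor of epidermal growth factor, was at 47.1, 49.1, 47.4 and 46.9 CPM, touching the upper end of the 29.2 to 46.9 CPM of set 4 and above the 11.3 to 19.2 CPM of sets 2 and 3 (log2 FC 1.18 ± 0.09). Gm7068, chosen after its values were seen, had 370 reads in all 16 libraries, with 4.19, 3.56, 3.58 and 3.38 CPM in set 3 and at most 0.0382 CPM in any other library.

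**Figure D5:**
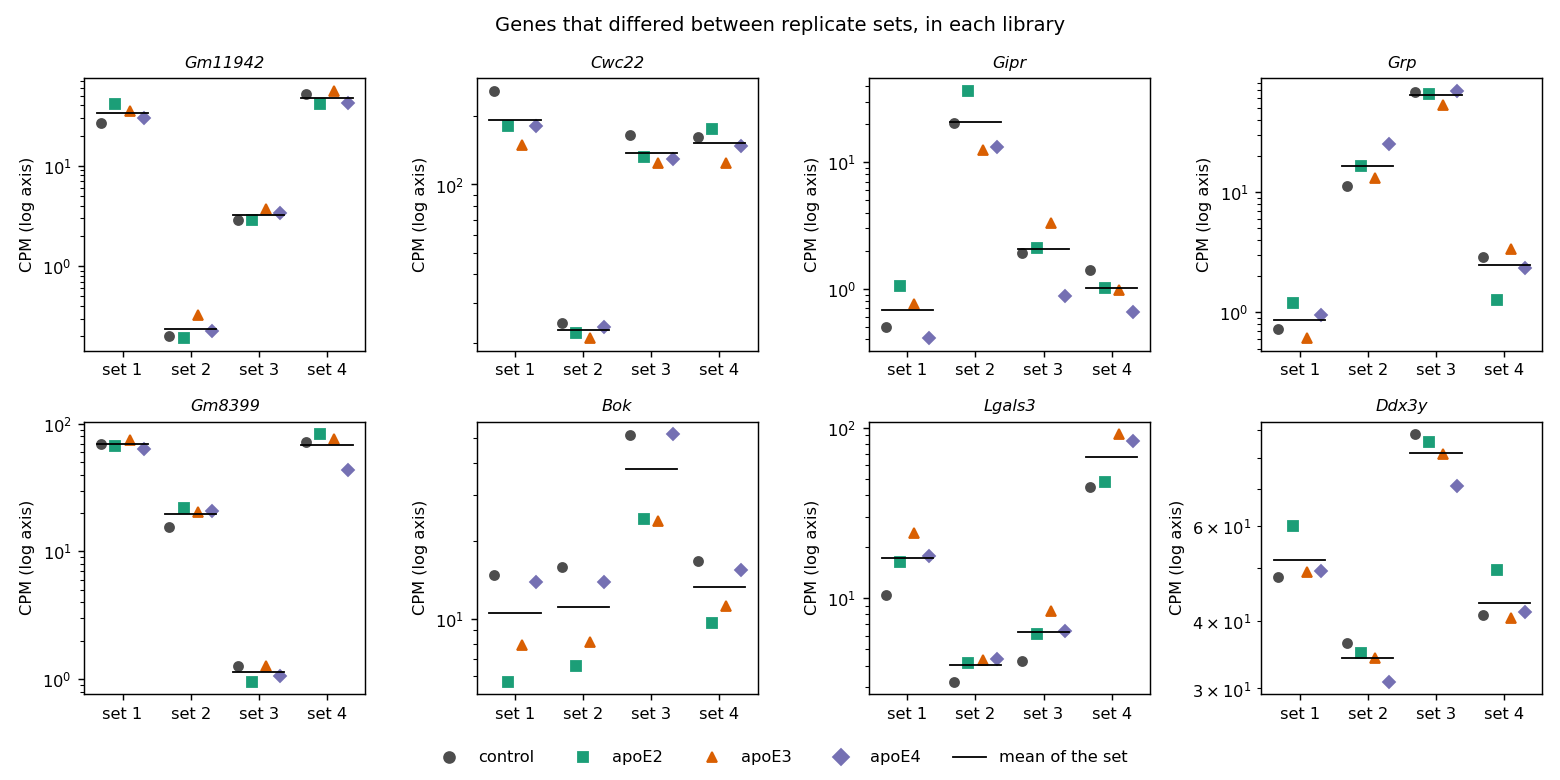
CPM (log axes) of 8 genes in each library, by replicate set on the horizontal axis, with 1 symbol per treatment and a line at the mean of each set. Gm11942 and Grp did not overlap between any sets, and Bok was higher in the control and apoE4 than in the apoE2 and apoE3 libraries of every set.

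The sum of 4 Y-linked genes differed between the sets, and Xist separated fewer of them. The Y-linked sum was 110 to 132 CPM in set 1, 71.2 to 86.7 CPM in set 2, 154 to 185 CPM in set 3 and 85.1 to 101 CPM in set 4. Only the ranges of sets 2 and 4 overlapped. An exact permutation test of the set numbers within treatments gave the smallest p it allows, 7.23e-05 (n = 4 per set, adjusted p = 0.000579 over 8 library measures). Ddx3y, an RNA helicase gene on the Y chromosome, was at 88.6, 85.6, 81.3 and 70.9 CPM in set 3 and at 36.5, 34.9, 34.1 and 30.9 CPM in set 2. Xist, the RNA that silences an X chromosome in females, was at 93.2, 51.7, 44.5 and 117 CPM in set 1, at 118, 98.9, 99.6 and 106 CPM in set 2, at 34.4, 53.2, 36.6 and 51.0 CPM in set 3 and at 68.8, 56.6, 42.1 and 68.0 CPM in set 4. Set 2 lay above sets 3 and 4, whose ranges overlapped, and set 1 overlapped with all 3. The exact permutation p of Xist was 0.00702 (n = 4 per set, adjusted p = 0.0281). Total gene counts, the shares of reads not aligned, on no feature or not unique and the mitochondrial share did not pass this test. Lars2 ranged from 0.359 to 15.02% of gene counts and had an exact permutation p of 0.0469 (n = 4 per set, adjusted p = 0.125).

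The lists described next covered general cell functions. No counts are given for the endothelial, erythroid, striatal, thalamic and midbrain, Cajal-Retzius and oligodendrocyte precursor lists. Of 16 integrated stress response genes, 12 were lower and none higher in set 3 (median log2 FC -0.41). The 12 became 6 without the apoE2 library and 7 without the apoE4 library of set 3. Of 81 ribosomal protein genes, 48 were lower and none higher in set 3 and 45 were higher and 1 lower in set 4, with small median log2 FC of -0.24 and 0.22. The 48 became 29 or 30 without the apoE2, apoE3 or apoE4 library of set 3. Scaled to the pan-neuronal genes, 73 were higher in set 1, 77 and 79 lower in sets 2 and 3 and 80 higher in set 4. Rpl35a stood out at 55.9 ± 3.13, 28.8 ± 3.14, 21.4 ± 1.15 and 56.6 ± 9.69 CPM in sets 1 to 4 (SD, n = 4). Cell cycle genes were higher in set 4 for 21 of 27 and lower in set 2 for 17, or for 11 without the apoE4 library of set 2. Among 10 heat shock genes at most 3 were higher and 2 lower in any set, with median log2 FC of -0.03 to 0.09. The pan-neuronal scale gave 6 higher in set 1, all 10 lower in set 2, 7 lower in set 3 and all 10 higher in set 4, with medians of 0.28, -0.46, -0.45 and 0.67, near those of all genes. Bag3, a co-chaperone gene, was lower in set 2 (log2 FC -2.45 ± 0.17) and higher in sets 1 and 4 (1.25 ± 0.14 and 1.56 ± 0.13). Of 13 hypoxia-responsive genes, 7 were higher and 2 lower in set 2, where the glycolytic regulator Pdk1 was at 123, 140, 101 and 96.5 CPM against 38.0 to 66.7 CPM in all other libraries. Of 10 mitochondrially encoded genes tested, 5 were higher in set 3, of which mt-Nd1, mt-Nd2 and mt-Nd5 lost the call without the treatment block (adjusted p = 0.0532, 0.0795 and 0.0761, edgeR) and without the apoE4 library of set 3. With that library left out 1 gene was higher, without the apoE2 library of set 3 there were 2, and none was higher on the pan-neuronal scale.

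The sets also bear on the treatment comparison. Without the replicate block, 39 genes (0.229%) differed among the 4 treatments in edgeR's F test, and with it 1823 (10.7%), which included all 39. The block uses the pairing of libraries by number, which was taken from these data and not from the design. Of the 1823, 86.5% also differed among sets, against 63.8% of all genes tested. The 3 genes with the smallest p under the replicate block were AI506816, Igf2bp1 and Eif4ebp2, each of which was highest in the apoE4 library of every set. AI506816 was at 36.5, 13.8, 18.1 and 37.8 CPM in the apoE4 libraries of sets 1 to 4 and at 3.77, 2.21, 3.04 and 7.17 CPM in their control libraries, so that the apoE4 library of set 2 was below the apoE3 library of set 4 at 14.8 CPM. Its adjusted p was 2.06e-07 with the replicate block and 0.0866 without it (edgeR). Eif4ebp2, which encodes a brake on cap-dependent translation, was at 85.9, 29.8, 38.0 and 58.0 CPM in the apoE4 libraries and at 5.17 to 7.55 CPM in the control libraries.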

How the data were processed

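RNA of 16 cultures was depleted of ribosomal RNA and sequenced by the study. The authors aligned reads to mm10 with STAR, counted them with HTSeq and deposited raw counts per gene symbol, with no normalization. The annotation and strand setting are not given in the sources used here, so overlapping and antisense genes cannot be told apart. HTSeq's 5 total rows were left out.

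Groups and replicate numbers were read from the sample titles. edgeR 4.0.16 (R 4.3.3, TMM, filterByExpr with a minimum count of 10) was fitted with set and treatment terms over all 16 libraries, 17038 of 48397 symbols were tested, and Benjamini-Hochberg was applied within each contrast over all genes tested. Without a fixed source for each number, p-values measure the spread between these libraries. The labels do not say what a number marks. Deviations of log2 CPM from the treatment means correlated at 0.462 to 0.892 in the 24 pairs of libraries with the same number. They correlated at -0.80 to 0.695 (median -0.44) in the 72 pairs with other numbers and treatments. Subtracting the treatment means makes the second group negative on average once the first is positive, so its sign is not evidence. The numbers were taken to pair libraries from the data, not the design, and the replicate block rests on this. Library measures were compared by an exact permutation test with 13824 arrangements. Positions are from GENCODE M21, to which 95.9% of symbols matched.

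The replicate sets, gene lists and naming rules were chosen with earlier results of these data known. The genes named are those picked per set by the rule given with them, up to 4 with the smallest F test p per list, fixed checks (Gfap, Rbfox3, Map2, Lars2, Malat1, sex-linked genes) and 3 genes for treatments, and any other gene named was chosen after its values were seen. Scripts were tested on simulated data. Alternatives were DESeq2 1.42.0, its size factors, no filter or a filter of 1 CPM in 8 libraries, no treatment block, features over 1% left out, length and GC offsets, and each library and set left out. The values of 1 listed gene are not reported here.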

Additional observations from a re-analysis of the deposited data

Results flagged for a closer look

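In 284 groups of 4 libraries, 13 held a highest or lowest library whose gap to the nearest of the others passed Dixon's 95% limit, and chance gives about 1 in 20. No library had more than 3 of them.

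In set 1 the control library was low in the summed endothelial genes (15.8 CPM, others 21.6 to 21.8) and cell cycle genes (93.6 CPM, others 133 to 139.7). The apoE2 library of set 1 was high in Hpca (364 CPM, others 188 to 207), Ddx3y (59.8 CPM, others 48.2 to 49.5) and Uty (20.7 CPM, others 15.7 to 16.1).

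In set 2 the apoE4 library had 13.9% of reads not aligned, against 22.7 to 23.9% in the others. The control library of set 2 had a sex-linked sum of 204 CPM (others 174 to 177), and the apoE3 library had Pex5l at 126 CPM (others 89.9 to 92.1). In set 3 the control library had Malat1 at 4063 CPM (others 2452 to 2571).

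In set 4 the apoE3 library was low in the sex-linked sum (127 CPM, others 156 to 161) and high in the sum of mitochondrially encoded genes (9872 CPM, others 7500.1 to 7764) and in Olig1 (191 CPM, others 95.3 to 105). The apoE2 library of set 4 had Ddx3y at 49.7 CPM (others 40.5 to 41.6).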

How the results depend on the processing

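Of 448 counts of genes recomputed under other settings, 421 stayed within 1.5 times the reported count and 27 did not. Without the treatment block, 1297 genes were higher and 780 lower in set 1, sets 1 and 4 differed at 1400 genes and sets 2 and 3 at 2603. Leaving out libraries or whole sets in turn, the counts were 376 to 3956 higher and 446 to 3828 lower for set 1, 1281 to 4083 for set 1 against set 4, and 1876 to 4425 lower for set 3. The ends for set 1 come from leaving out set 2 or set 4, which changes the sets it is compared with. Single libraries moved these counts by over 1.5 times. Without the control, apoE2 or apoE3 library of set 1, the count for set 1 was 791 lower, 1282 higher or 1371 higher, in that order. Set 1 against set 4 gave 1405 without the apoE4 library of set 1 and 1723 or 1460 without the apoE3 or apoE4 library of set 4. Set 3 had 1994 or 2047 lower without its apoE3 or apoE4 library. The 10865 genes among sets became 8416 to 11086.

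Among treatments, 1823 genes were called with the replicate block, 228 by DESeq2 without the block, and 3157 by DESeq2 with the replicate block. Without the block, the 39 genes called by edgeR became 17 to 60 with a library left out, the lowest without the apoE4 library of set 1 and the highest without that of set 2 (20 without that of set 4). The cause was not tested. Of 160 named or listed genes, 10 crossed the threshold under some setting (35 lost and 8 gained calls). None of those called under the main settings changed direction, and genes not called there were not checked for this. The gap between the highest and the lowest set median was 91.7 to 95.8 CPM for the Y-linked sum and 51.6 to 66.1 CPM for Xist with a library left out.

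With 4 libraries per set and 1 per set and treatment, a set effect cannot be separated from the block of sheet numbers, and genes under about 1 CPM rest on few reads.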
